A study of Mus musculus with 26 samples.

Results

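The days around birth were examined in the Prrx1-negative fibroblasts of mouse ventral skin, called PNF in the labels, by comparing bulk RNA libraries made at postnatal day P1 with libraries made at embryonic day E18.5. The members were chosen by lineage and age alone: 4 PNF libraries of P1 and 4 of E18.5, lettered A to D at each age, which are 8 of the 24 bulk libraries and of the 26 samples of the series. All mice carried the strain label Prrx-Cre, in which the recombinase is driven by regulatory sequence of Prrx1, a homeobox gene of early limb and facial mesenchyme, so the lineage is defined by the history of that promoter and not by present Prrx1 RNA. The E18.5 tissue is labelled embryonic and the P1 tissue postnatal ventral skin, the cell type is given as fibroblasts, and no treatment separates the groups. The other lineage, the Prrx1-positive fibroblasts (PPF), had 2 libraries at each of these ages and served for comparison. Skin was digested with collagenase at 37 °C before cells were sorted by FACS and cDNA was amplified from a small input of RNA. The gate, the reporter, the sex, the litters and whether libraries come from separate animals are not given in the sources used here, so all p-values measure the spread between these libraries, which may be technical.

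At birth the skin passes from amniotic fluid to air, from placental to oral feeding and from a sterile to a colonised surface, and the newborn has a surge of glucocorticoid and catecholamine. Dermal fibroblasts build the collagen and elastin network of the skin and also act as sentinels. Cytokines of the tumour necrosis factor and interleukin families act on them through the transcription factor NF-kappaB, which is held in the cytoplasm by inhibitors such as Nfkbia and switches on adhesion molecules and chemokines. Immediate early genes are transcribed within minutes of a stimulus, without new protein synthesis, and tissue digestion is itself known to induce them.

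The libraries did not stand on equal terms. Gene counts per library ran from 5608500 to 9008313 at E18.5 and from 5843938 to 16792015 at P1, and 11766 to 19421 genes had a count. Erythroid genes, chiefly globins, took 43.3% of the counts in E18.5 A and 10.1% in P1 A, against 0.223 to 2.93% in the other 6 libraries. The 12 fibroblast markers summed to 0.639% in E18.5 A and 0.157% in P1 A, against 1.47 to 2.01% in the others, so the fibroblast label is least well borne out by the RNA of the 2 A libraries. In the first principal components of the log2 levels (32.9% and 28.8% of variance) those A libraries lay apart from each other and from the rest. The C and D libraries of an age resembled each other most, with a correlation of 0.976 across genes at E18.5 and 0.945 at P1, where all other pairs of the same age had 0.717 to 0.896. Pairs of different age had 0.657 to 0.912. The highest of these, E18.5 B with P1 C, was above the 0.892 and 0.896 of E18.5 B with E18.5 C and D. Likeness between libraries thus did not follow age alone. The counts of C and D had a chi-square per degree of freedom of 10.4 at E18.5 and 60.3 at P1, against 126 to 519 in the other pairs of the same age. Amplified cDNA exceeds counting noise also between technical repeats, so whether C and D are separate samples cannot be told apart from this value. They were kept as the labels give them, as separate libraries. With C and D summed at each age, DESeq2 called 85 genes in place of 276 and voom 0 in place of 1341 (1409 at an unadjusted p under 0.05). The titles of the P1 libraries A and B carry an extra 0 that C and D lack, and results are therefore also given within the A and B pair and within the C and D pair. The E18.5 titles have no such mark, and no label links a letter at E18.5 to the same letter at P1. These splits across the ages thus follow the letters only and are not matched samples. The tables count reads per transcript, and some genes usually abundant in fibroblasts had low counts (Col1a2 5.896 to 22.6 CPM beside Col1a1 at 439.4 to 9700 CPM, per unscaled library total). A low level of a gene therefore cannot be read as little RNA of it. In bulk RNA, fewer cells of a type and less RNA per cell cannot be told apart.

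**Figure D1:**
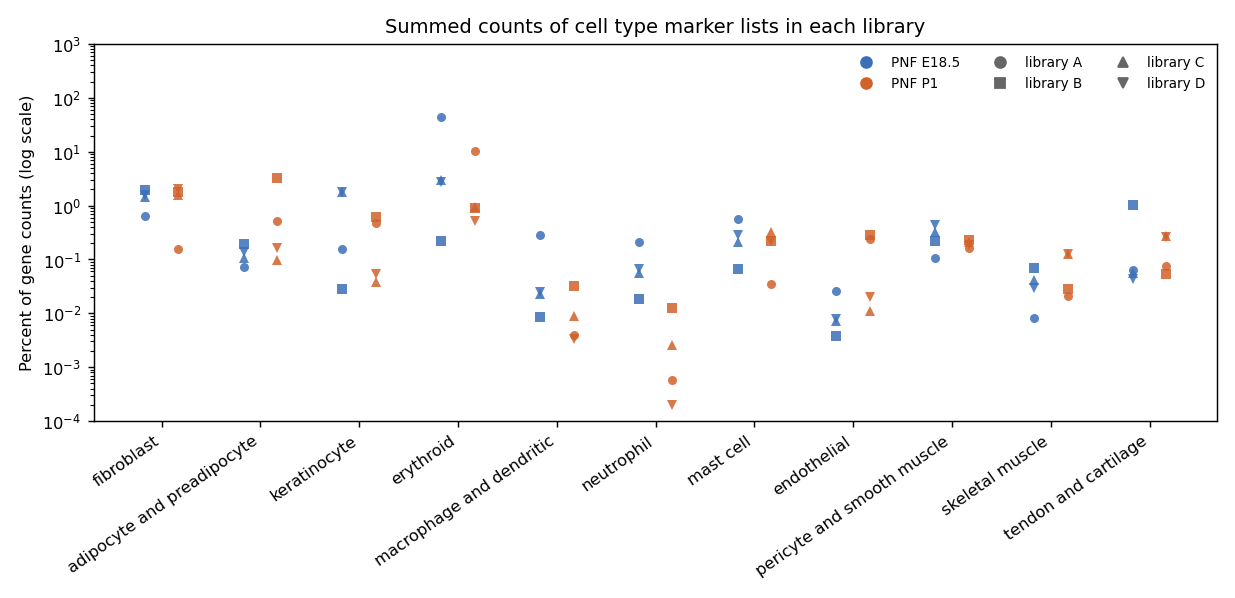
Share of gene counts (percent, log scale) that fell on each list of cell type markers, 1 point per library, blue for PNF E18.5 and orange for PNF P1, with the shape giving the library letter. The erythroid points of the A libraries stand at 43.3 and 10.1%, and the keratinocyte points of E18.5 C and D stand at 1.76 and 1.75%.

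Prrx1 (mm10, chromosome 1, 163245119 to 163313710), whose promoter defines the lineage, had RNA in all 8 libraries. Its level was 116, 49.42, 36.98 and 47.41 CPM in E18.5 A to D and 32.92, 37.54, 37.95 and 56.58 CPM in P1 A to D, where CPM are counts scaled to a common library total after TMM normalisation. The ages overlapped, and E18.5 A was the highest library. The log2 fold change, P1 minus E18.5, was -0.60 with a standard error of 0.44 (edgeR adjusted p = 0.729), and it was -0.07 without both A libraries, a choice made after seeing the data.

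Over all genes, the edgeR quasi-likelihood test called 0 of 11552 genes (0%) at an adjusted p under 0.05, with a lowest adjusted p of 0.239, while 1023 genes (8.86%) had an unadjusted p under 0.05. The same libraries gave 276 calls with DESeq2 and 1341 with limma voom. Voom was run throughout with quality weights, which let libraries count unequally in the fit. DESeq2 called 201 genes higher at P1 (1.88% of the 10712 with an adjusted p) and 75 lower (0.7%), and voom called 924 higher (8%) and 417 lower (3.61%). In 567 genes (4.91%) every P1 library lay above every E18.5 library, and in 314 (2.72%) every P1 library lay below. Of the DESeq2 calls, 226 were also called by voom and 240 had no overlap between the ages. The edgeR fit had a biological coefficient of variation of 0.83, and the median log2 fold change of all tested genes was 0.04. Without both A libraries edgeR called 7 genes, DESeq2 908 and voom 1190. Within the C and D pair alone edgeR called 1391 genes (747 higher, 644 lower), measured against the small spread between those similar libraries, and within the A and B pair alone 0. Because no gene passed the edgeR test on 8 libraries, levels and differences below are values, and a call is given with the tool that made it.

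Among the genes with the smallest p, no overlap and at least 10 CPM at P1, those with the higher level at P1 included receptors of the vessel surface, a transcription factor of the acute phase and regulators of signalling. Thbd (chromosome 2, 148404466 to 148408188), thrombomodulin, the receptor that turns thrombin from a clotting into an anticoagulant enzyme, stood at 20.49, 24.55, 22.87 and 41.39 CPM in E18.5 A to D and at 234, 380.7, 132.6 and 223.2 CPM in P1 A to D. The lowest P1 library lay well above the highest E18.5 library, and the mean was 8.88-fold higher (27.3 ± 9.52 against 242.6 ± 103 CPM, SD, n = 4 each). The log2 fold change was 3.15 with a standard error of 0.422 (adjusted p = 0.239 in edgeR and 2.33e-08 in DESeq2).

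Sele (chromosome 1, 164048234 to 164057677), E-selectin, which tethers leukocytes to activated vessel walls, was nearly absent before birth, with 0, 0.95, 0 and 0.1 CPM in E18.5 A to D from 7 counts in all. At P1 it stood at 144.6, 636.8, 75.9 and 135.1 CPM, from 13491 counts. Every P1 library held Sele, with B the highest (edgeR adjusted p = 0.239, DESeq2 2.15e-13). Endothelial markers summed to 0.00386 to 0.0263% of counts at E18.5 and to 0.243, 0.284, 0.0112 and 0.0199% in P1 A to D. In E18.5 A, where Sele was at 0 CPM, the sum was 0.0263%, with 158 CPM of Plvap and 17.3 CPM of Cldn5 per unscaled library total. In P1 C and D the sums were smaller, but Cldn5 was higher, at 41.76 and 58.72 CPM. The part of endothelial RNA in the Sele level was not tested.

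Cebpd (chromosome 16, 15887286 to 15891031), a bZIP factor of the acute phase response that glucocorticoid also induces, was separated by a wide gap. Its level was 198.8, 315.4, 387.8 and 400.1 CPM at E18.5 and 1613, 1007, 2091 and 1511 CPM at P1 (A to D), a mean 4.78-fold higher. The lowest P1 library had over 2 times the level of the highest E18.5 library (log2 fold change 2.26, standard error 0.361, adjusted p = 0.334 in edgeR and 7.24e-06 in DESeq2). Plxna2, a receptor for semaphorins, was at 12.83 to 22.3 CPM at E18.5 and at 201.4, 199.2, 82.75 and 87.98 CPM in P1 A to D, with the A and B libraries above C and D. Adamts1, a secreted protease that cleaves versican, was at 240.1 to 412.3 CPM at E18.5 and 812.8 to 1189 CPM at P1, a mean 3.18-fold higher (DESeq2 adjusted p = 1.61e-04).

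The remaining genes of this group act inside the cell. Rgs16, which shortens G protein signalling, was 3.52-fold higher in mean at P1 (104.2 ± 19.1 against 367 ± 80.1 CPM). Nup153, of the basket of the nuclear pore, was 3.50-fold higher (80.3 ± 7.16 against 281 ± 82.1 CPM), and Spsb1, an adaptor of a ubiquitin ligase, 5.66-fold higher (24.3 ± 15.2 against 137 ± 21.0 CPM). These genes, like the kinase gene Itpkc, which phosphorylates inositol trisphosphate (57.5 ± 24.8 against 217 ± 57.4 CPM), and the pseudokinase gene Trib2 (73.9 ± 12.3 against 198.6 ± 40.9 CPM), had edgeR adjusted p-values of 0.334 to 0.367. DESeq2 and voom each called all 10 genes on the 8 libraries. With C and D summed, DESeq2 no longer called Adamts1 (adjusted p = 0.0548), Itpkc (0.183) and Trib2 (0.17), and voom called none of the 10.

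**Figure D2:**
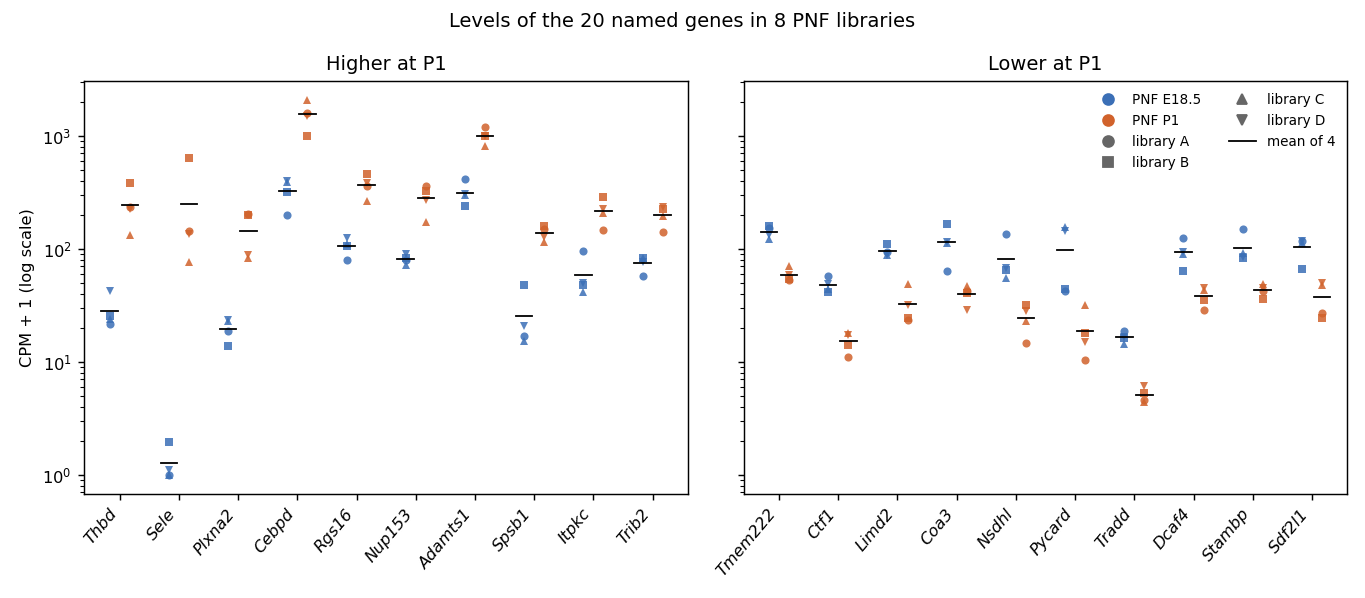
Levels (CPM + 1, log scale) of the 10 genes higher and the 10 genes lower at P1 with the smallest p, 1 point per PNF library and a bar at the mean of 4. The genes were chosen for having no overlap, so the separation of blue and orange is by choice, and Sele spans the widest distance, from at most 0.95 CPM at E18.5 to at least 75.9 CPM at P1. CPM are not scaled by gene length, so heights are comparable within a gene only.

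The genes with the lower level at P1 differed less in size and came from other parts of the cell. Ctf1 (chromosome 7, 127712736 to 127718192), cardiotrophin, a cytokine of the Il6 family, was at 56.04, 40.86, 43.54 and 47.82 CPM in E18.5 A to D and at 10.08, 13.16, 17.18 and 16.21 CPM in P1 A to D. Its mean was 3.32-fold lower at P1 (log2 fold change -1.73, standard error 0.372, adjusted p = 0.367 in edgeR and 1.04e-05 in DESeq2). Pycard (chromosome 7, 127989708 to 127993867), the inflammasome adaptor ASC, was at 41.48, 42.92, 156.8 and 143.8 CPM at E18.5 and at 9.45, 16.9, 30.77 and 14.07 CPM at P1. Within E18.5 its libraries split, with C and D far above A and B, and all 4 P1 libraries lay below both. Tradd (chromosome 8, 105258286 to 105264609), the adaptor of the tumour necrosis factor receptor, was at 13.42 to 17.78 CPM at E18.5 and 3.37 to 5.1 CPM at P1, a mean 3.79-fold lower (DESeq2 adjusted p = 7.36e-06).

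Other genes of this group serve metabolism and protein turnover. Nsdhl, an enzyme of cholesterol synthesis, averaged 79.9 ± 36.3 CPM at E18.5 and 23.3 ± 7.44 CPM at P1. Coa3, which assembles cytochrome c oxidase, averaged 113 ± 41.1 and 38.8 ± 7.81 CPM, and Sdf2l1, of a chaperone complex in the endoplasmic reticulum, 102 ± 24.8 and 36.4 ± 13.4 CPM. Stambp, a deubiquitinase of endosomes, and Dcaf4, a substrate receptor of cullin ubiquitin ligases, were 2.40-fold and 2.50-fold lower at P1. The membrane protein gene Tmem222 (141 ± 18.3 against 57.9 ± 7.87 CPM) and the LIM domain gene Limd2 (94.5 ± 10.7 against 31.4 ± 11.9 CPM) complete the group. All 10 had an edgeR adjusted p of 0.367, and DESeq2 and voom called each of them lower on the 8 libraries. With C and D summed, DESeq2 called only Tmem222, Ctf1, Limd2 and Tradd (adjusted p of 0.00867 to 0.0446; 0.144 to 0.234 for the other 6), and voom called none.

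The acute phase and chemokine list had a higher mean at P1 in nearly all of its tested members. Of its 20 genes 16 passed the filter on low counts, 15 of these had a higher mean at P1, and their median log2 fold change was 1.87, beside 0.04 for all tested genes. The ages did not overlap for 4 of the 16, all higher at P1 (4.91% of all genes), and DESeq2 called 3 higher (1.88% of all genes; Icam1, Nfkbia and Tnfaip3). Icam1 (chromosome 9, 21015985 to 21028817), a ligand for leukocyte integrins, was at 591.3, 98.99, 319.7 and 274 CPM in E18.5 A to D and at 2025, 4532, 1380 and 1903 CPM in P1 A to D. The spread at each age was several-fold, yet the mean was 7.66-fold higher at P1 (log2 fold change 2.94, standard error 0.609, adjusted p = 0.367 in edgeR and 0.00162 in DESeq2). Nfkbia (chromosome 12, 55489410 to 55492647), the inhibitor of NF-kappaB that NF-kappaB itself induces, was at 707.5 to 1664 CPM at E18.5 and 2764 to 3637 CPM at P1. Tnfaip3, the deubiquitinase A20 that ends the same signal, was low, at 0, 0.63, 1.59 and 1.91 CPM and then 22.37, 6.34, 4.68 and 4.59 CPM (DESeq2 adjusted p = 0.0396).

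Secreted members of that list set P1 A apart from the other P1 libraries. Cxcl1, which attracts neutrophils, was at 346.9 to 455.2 CPM at E18.5 and at 253.3, 2037, 2087 and 1658 CPM in P1 A to D. Il6 was at 131.6, 19.96, 10.54 and 12.46 CPM at E18.5 and at 39.22, 652, 447.2 and 327.9 CPM at P1. P1 A thus lay below the E18.5 range for Cxcl1 and within it for Il6, while P1 B to D lay above every E18.5 library for both. P1 A was also the exception for Ccl7, another chemokine (218.5 CPM in E18.5 A and 0 in P1 A, 8.25 to 27.88 CPM in E18.5 B to D and 407.3 to 794.6 CPM in P1 B to D). Has1, a hyaluronan synthase, was at 213.8 CPM in E18.5 A and 59.69 CPM in P1 A. Without both A libraries, 12 of the 16 genes had no overlap, all higher at P1, where 14.5% of all genes did, and edgeR called Il6 (log2 fold change 5.01, adjusted p = 0.0347). The median of the list was 1.61 within the A and B pair and 2.14 within the C and D pair. Vcam1, an adhesion molecule for lymphocytes and monocytes, had the same exception, at 71.02 to 141.3 CPM at E18.5 and at 51.82, 279.2, 411.4 and 471.7 CPM in P1 A to D (voom adjusted p = 0.00489, DESeq2 0.172).

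Promoters of this list were read because its members moved together in most libraries. The RefSeq promoter table (GRCm38.p6) held 14 of its 20 genes, and a 10-base kappaB consensus, searched on both strands of the 250 bases before each start site, was found in 6 of them: Cxcl1, Cxcl2, Il1r1, Il6, Nfkbia and Tnfaip3. Of the members that passed the filter on low counts, 5 of 11 held a match (45.5%), where 424 of 8002 tested genes in the table did (5.30%). The list was drawn up by function and holds genes that NF-kappaB is known to switch on. A share above that of all genes is therefore built into the list and is no result of these data. In the immediate early list it was 3 of 14 tested members (21.4%; Fos, Fosb and Ier3), and in the glucocorticoid list 0 of 12. The 250 bases before the start of the 3 genes of the 4 named first by p that held a match are shown 5′ to 3′ on the gene's strand, with matches in capitals.
Nfkbia, chr12:55492648-55492897, minus strand: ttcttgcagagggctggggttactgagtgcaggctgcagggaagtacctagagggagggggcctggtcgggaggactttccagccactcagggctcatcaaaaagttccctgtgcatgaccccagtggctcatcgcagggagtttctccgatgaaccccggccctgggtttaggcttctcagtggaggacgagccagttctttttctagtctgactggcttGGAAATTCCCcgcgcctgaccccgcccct
Cxcl1, chr5:90890995-90891244, plus strand: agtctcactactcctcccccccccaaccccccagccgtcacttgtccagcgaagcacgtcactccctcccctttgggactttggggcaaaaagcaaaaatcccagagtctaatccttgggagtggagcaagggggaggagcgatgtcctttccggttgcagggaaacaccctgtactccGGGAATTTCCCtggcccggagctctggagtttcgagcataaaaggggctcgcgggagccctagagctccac
Tnfaip3, chr10:19015411-19015660, minus strand: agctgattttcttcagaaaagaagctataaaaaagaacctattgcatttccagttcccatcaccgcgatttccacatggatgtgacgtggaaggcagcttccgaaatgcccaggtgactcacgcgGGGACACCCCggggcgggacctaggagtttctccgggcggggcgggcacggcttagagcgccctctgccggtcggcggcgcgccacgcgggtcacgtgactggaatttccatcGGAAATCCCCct
The match of Nfkbia lies 20 bases before the start, those of Cxcl1 overlap on opposite strands, and Tnfaip3 has 2 separate matches at the start site shown. The 250 bases before another start site of Tnfaip3 (chr10:19011964-19012213, minus strand) held 0 matches. Icam1 had no match to these letters in this window, and neither did any of the 8 of 10 genes of the higher group that are in the table. A match is a description of the sequence and not a measured site.

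The immediate early list had 17 of 20 genes tested, all 17 with a higher mean at P1, and a median log2 fold change of 1.25. No overlap was seen in 5, all higher at P1 (4.91% of all genes), and DESeq2 called 4 higher (1.88% of all genes; Klf6, Socs3, Myc and Atf3). Klf6, a zinc finger factor induced by injury, was at 1169, 678.8, 551.3 and 541.5 CPM in E18.5 A to D and at 2906, 3158, 2024 and 2196 CPM in P1 A to D (DESeq2 adjusted p = 0.00311). Socs3, the feedback inhibitor of Il6-type cytokine receptors, was nearly constant at E18.5 (318.3 to 357.4 CPM) and at 1118, 524.9, 1430 and 1601 CPM at P1. Atf3, a stress-induced bZIP factor, was at 479.8 to 595.3 CPM at E18.5 and at 3111, 832.2, 1558 and 1534 CPM at P1. The P1 B library was thus the lowest P1 library for Socs3 and Atf3, though still above every E18.5 library. Fos, the prototype of the class, overlapped, with 2382 to 3743 CPM at E18.5 and 11070, 989.2, 3549 and 4242 CPM in P1 A to D. Klf2, Ier2 and Junb overlapped as well. The same digestion is described for every sample, and its part in these levels was not tested.

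Of the glucocorticoid-responsive genes, 14 of 16 tested had a higher mean at P1, and the median of the list was 1.19 on the log2 scale. The ages did not overlap in 7: Cebpd, Klf9, Mt2, Errfi1, Pdk4 and Nr3c1 higher at P1 (4.91% of all genes) and, as in 2.72% of all genes, 1 lower, Hsd11b1, which regenerates active glucocorticoid, at 1.71 to 2.53 against 0 to 1.12 CPM. DESeq2 called 4 higher (1.88% of all genes), namely Cebpd, Klf9, Mt2 and Pdk4. Klf9 (chromosome 19, 23141226 to 23168134), a direct target of the glucocorticoid and thyroid hormone receptors, was at 127.2, 112.1, 62.53 and 49.42 CPM and then 285.7, 236, 369.8 and 464.3 CPM (A to D), a mean 3.86-fold higher (adjusted p = 0.367 in edgeR and 0.00493 in DESeq2). Mt2, a metal-binding metallothionein, was at 77.03 to 269.5 CPM at E18.5 and 406.8 to 1439 CPM at P1. Pdk4, which spares glucose by blocking pyruvate dehydrogenase and also belongs to the fasting list, was at 0, 33.89, 9.35 and 7.94 CPM and then 617.2, 165.3, 43.5 and 56.28 CPM. The textbook targets Fkbp5 and Tsc22d3 overlapped between the ages. Tsc22d3 was at 9.14 to 36.54 CPM at E18.5 and 16.82 to 41.11 CPM at P1, and Fkbp5 stood above its E18.5 range of 2.96 to 5.07 CPM in P1 A (22.05 CPM) and P1 B (6.1 CPM) only. Nr3c1, the receptor itself, was at 3.95 to 8.39 and 11.32 to 15.91 CPM, a level to which the limit of the transcript tables applies.

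**Figure D3:**
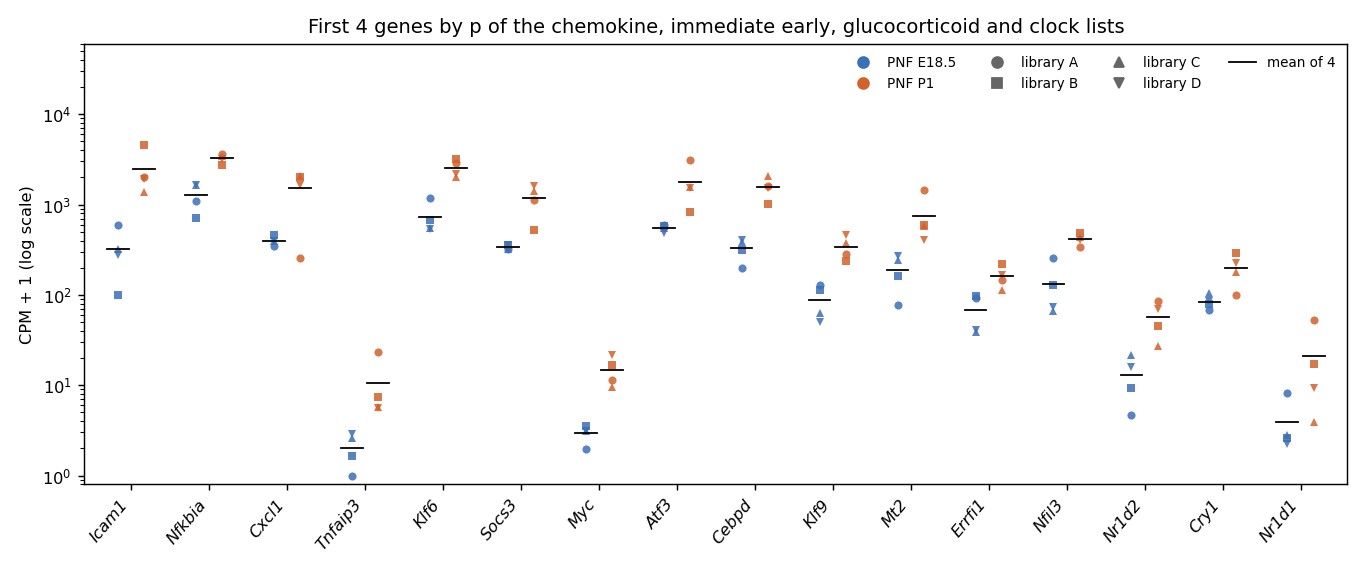
Levels (CPM + 1, log scale) of the 4 genes with the smallest p in each of the acute phase and chemokine, immediate early, glucocorticoid and circadian clock lists, 1 point per PNF library and a bar at the mean of 4. Cxcl1 in P1 A (253.3 CPM) lies below the E18.5 libraries, whereas Nfkbia, Klf6, Socs3, Cebpd and Klf9 have all P1 points above all E18.5 points.

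Clock genes also had higher values at P1, with a median log2 fold change of 1.24 over the 9 of 16 tested and a higher mean in 7. Nfil3, a bZIP repressor of clock output, was at 253.8, 126.1, 65.81 and 72.12 CPM at E18.5 and 334.2, 479.9, 433.6 and 403.4 CPM at P1 (voom adjusted p = 0.00168, DESeq2 0.0746). Nr1d2, the nuclear receptor that represses Bmal1, was at 3.7 to 20.38 CPM at E18.5 and 26.21 to 85.05 CPM at P1, and DESeq2 called it (adjusted p = 0.0246). Dbp, a clock output gene, overlapped at 4.12 to 6.42 and 1.87 to 6.3 CPM. The sources used here do not state the hour of collection, and its part was not tested.

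Several signalling lists had medians above that of all genes, with few calls. Of 16 TGF-beta genes, 14 had a higher mean at P1 (median 0.66) and 3 did not overlap, all higher (4.91% of all genes): the receptors Tgfbr1 (41.08 to 89.37 against 90.25 to 162.5 CPM) and Tgfbr3, and the shared signal carrier Smad4 (77.28 to 91.26 against 121.2 to 138.4 CPM), none of them called by DESeq2. In the IGF and insulin list 14 of 15 had a higher mean (median 0.86). Igf1r, the receptor for insulin-like growth factors, was at 2.22, 3.96, 3.88 and 3.11 CPM at E18.5 and at 22.21, 14.31, 9.24 and 23.86 CPM at P1 (DESeq2 adjusted p = 4.69e-04). It was the only gene of the list without overlap, where 4.91% of all genes were higher without overlap. The BMP receptor Bmpr2 (6.17 to 11.72 against 16.86 to 45.83 CPM, DESeq2 adjusted p = 0.0496) and the Wnt receptor Fzd1 (78.56 to 127.4 against 163.7 to 400.3 CPM, DESeq2 adjusted p = 0.0185) had the same pattern. The YAP list, of genes that respond to mechanical tension, had a higher mean in 12 of 13 (median 0.82). Its secreted member Ccn1 was at 3048 to 3887 CPM at E18.5 and 4634 to 6468 CPM at P1, and it was not called by DESeq2 (adjusted p = 0.211).

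Matrix protease inhibition and protein folding each had single genes that stood out. Timp3, an inhibitor of metalloproteases, was at 222.2 to 423.2 CPM at E18.5 and at 1456, 1381, 640.4 and 727.6 CPM in P1 A to D (DESeq2 adjusted p = 0.00907). The heat shock gene Hspa1a was at 2620 to 6026 CPM at E18.5 and at 22630, 8370, 11800 and 11830 CPM at P1 (DESeq2 adjusted p = 0.0144). Its near-identical copy Hspa1b went the same way, from 709.8 to 967.3 CPM to 1176 to 6641 CPM, and reads shared by both cannot be assigned with certainty. Hspa1a and Hspa1b differed in the opposite direction from Sdf2l1 of the same list, whose median was 0.68 over 14 genes.

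Genes of fuel use and of the interferon response leaned the same way with wide spread. In the lipid oxidation and fasting list 11 of 14 tested had a higher mean at P1 (median 1.44), and Pdk4, described above, did not overlap. Cpt1a, which admits fatty acids to mitochondria, was at 27.9 to 67.7 CPM at E18.5 and at 14.81, 167.7, 202.8 and 222.5 CPM in P1 A to D, so only P1 A lay low. In the interferon list 11 of 13 had a higher mean (median 0.77). Ifitm3, which restricts virus entry, was at 341.2 to 580.9 CPM at E18.5 and 816.5 to 1988 CPM at P1 (DESeq2 adjusted p = 0.0216), while Isg15 overlapped, at 6.34 to 21.5 and 9.99 to 92.41 CPM. In cholesterol synthesis 8 of 16 were higher and 8 lower. Fdft1, the squalene synthase, was at 272.5 to 375 CPM at E18.5 and 117.2 to 193.7 CPM at P1 (DESeq2 adjusted p = 0.0243), next to the lower Nsdhl of the same route.

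Hypoxia genes split. Ndrg1, a stress-induced gene, was at 62.53 to 176.3 CPM at E18.5 and 416.9, 988.5, 222.7 and 295.8 CPM in P1 A to D (DESeq2 adjusted p = 0.0287), whereas the glycolytic Pfkl was at 246.2 to 289.7 CPM and then 72.75 to 210.6 CPM (DESeq2 adjusted p = 0.131). Ndufa4l2, an HIF-induced mitochondrial protein, was at 84.44, 278.3, 447.7 and 508.4 CPM at E18.5 and 95.92, 44.43, 55.13 and 45.78 CPM at P1. It was called lower by DESeq2 on 8 libraries (adjusted p = 0.0059) and by edgeR without both A libraries (log2 fold change -3.12, adjusted p = 0.0347). The other 6 genes called by edgeR without those libraries were all higher at P1, with the same adjusted p. They were Il6, the NF-kappaB subunit gene Rel (14.57 to 80.49 against 63.63 to 137.5 CPM over 8 libraries), the ubiquitin ligase gene Rnf19a, the phosphatase gene Ptp4a1, Fgl2 and Tnfaip6. Tnfaip6, a hyaluronan-binding protein induced by tumour necrosis factor, was at 295.6 to 396.8 CPM at E18.5 and at 346.3, 3131, 3039 and 2715 CPM in P1 A to D, and Fgl2, a fibrinogen-like protein, at 23.45 to 40.28 CPM and then 1.26, 382.6, 302.3 and 297.4 CPM. Both were also called without P1 A alone (adjusted p = 0.028), the library in which they lay within or below the E18.5 range.

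Single fibroblast identity genes differed between the ages. Crabp1, a retinoic acid carrier of papillary dermis, was at 419.2, 929.3, 529.1 and 540.8 CPM at E18.5 and 48.67, 125.3, 331.1 and 231.8 CPM at P1 (voom adjusted p = 0.0231, DESeq2 0.0975). Twist2, a bHLH factor of dermal mesenchyme, was at 234.6 to 380.2 CPM and then 54.97 to 225.2 CPM. No tool called it (adjusted p = 0.594 in edgeR, 0.415 in DESeq2 and 0.0503 in voom). Sox11, a factor of embryonic progenitors, was the reverse, at 7.84 to 13.42 CPM and then 19.74 to 30.99 CPM (DESeq2 adjusted p = 0.0253). Sparcl1, a matrix-associated relative of osteonectin, was at 333.3 to 520.9 CPM at E18.5 and 1611, 1494, 773.3 and 785.6 CPM at P1 (DESeq2 adjusted p = 0.0495). It was highest in P1 A and B, the libraries with the highest endothelial sums (0.243 and 0.284% of counts), and the part of other cell types was not tested. The papillary list as a whole had 5 of 9 higher in mean and 4 lower.

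Proliferation genes had lower levels at P1 in most cases. The cell cycle list had a lower mean in 15 of 20 tested genes and a median log2 fold change of -0.68, and 3 did not overlap, all lower (2.72% of all genes): Mcm5 of the replicative helicase (4.18 to 15.55 against 0.16 to 2.72 CPM, DESeq2 adjusted p = 0.0482), E2f1 and the spindle checkpoint kinase Bub1. Plk1, a mitotic kinase, was at 40.24, 97.41, 83.21 and 86.49 CPM at E18.5 and at 54.34, 26.26, 32.19 and 21.72 CPM at P1, so that only the A libraries overlapped (DESeq2 adjusted p = 0.169). Mki67 had its highest value in P1 A (563.7 CPM), against 86.34 to 130.5 CPM in the other P1 libraries and 121.7 to 181 CPM at E18.5. Without both A libraries 12 of the 20 genes had no overlap and were lower at P1, where 12.6% of all genes were. HOX genes, which carry body position, had a median of -0.33 over 19 tested, with 14 lower in mean. Only Hoxc5 (10.93 to 17.68 against 0 to 8.26 CPM) had no overlap, and 1 of 19 is near the 2.72% of all genes that were lower without overlap. Without both A libraries 8 of the 19 had no overlap and were lower at P1, where 12.6% of all genes were.

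Some lists had the same direction within each pair of libraries and others did not. Of 29 process lists, 15 had a median above 0 and 2 a median below 0 in both pairs, and 12 had medians of opposite sign. In the A and B pair the immediate early list had a higher mean at P1 in 17 of 17 genes and in the C and D pair in 16 of 17, and the glucocorticoid list in 14 of 16 and 12 of 16. Fibrillar collagens and matrix genes split: 5 of 20 were higher at P1 in the A and B pair (median -0.62) and 18 of 20 in the C and D pair (median 0.79). The imprinted growth network, a set of parent-specific genes of fetal growth, had 0 of 16 higher in A and B (median -0.98) and 14 of 18 in C and D (median 0.71). Elastic fibre genes had medians of -0.27 and 1.76. Elastin itself, Eln, was at 525.1, 1469, 523 and 759.4 CPM in E18.5 A to D and 517.6, 1980, 2535 and 2457 CPM in P1 A to D, and Lox, which crosslinks it, at 320.2 to 543 CPM at E18.5 and 139.9, 983, 1565 and 1827 CPM at P1. Col1a1 ranged from 404.5 CPM in P1 A to 9832 CPM in P1 B. The fibroblast marker list had 0 of 11 genes higher in A and B and 6 of 11 in C and D, and its share of counts was lowest in P1 A; its part in the matrix values was not tested.

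**Figure D4:**
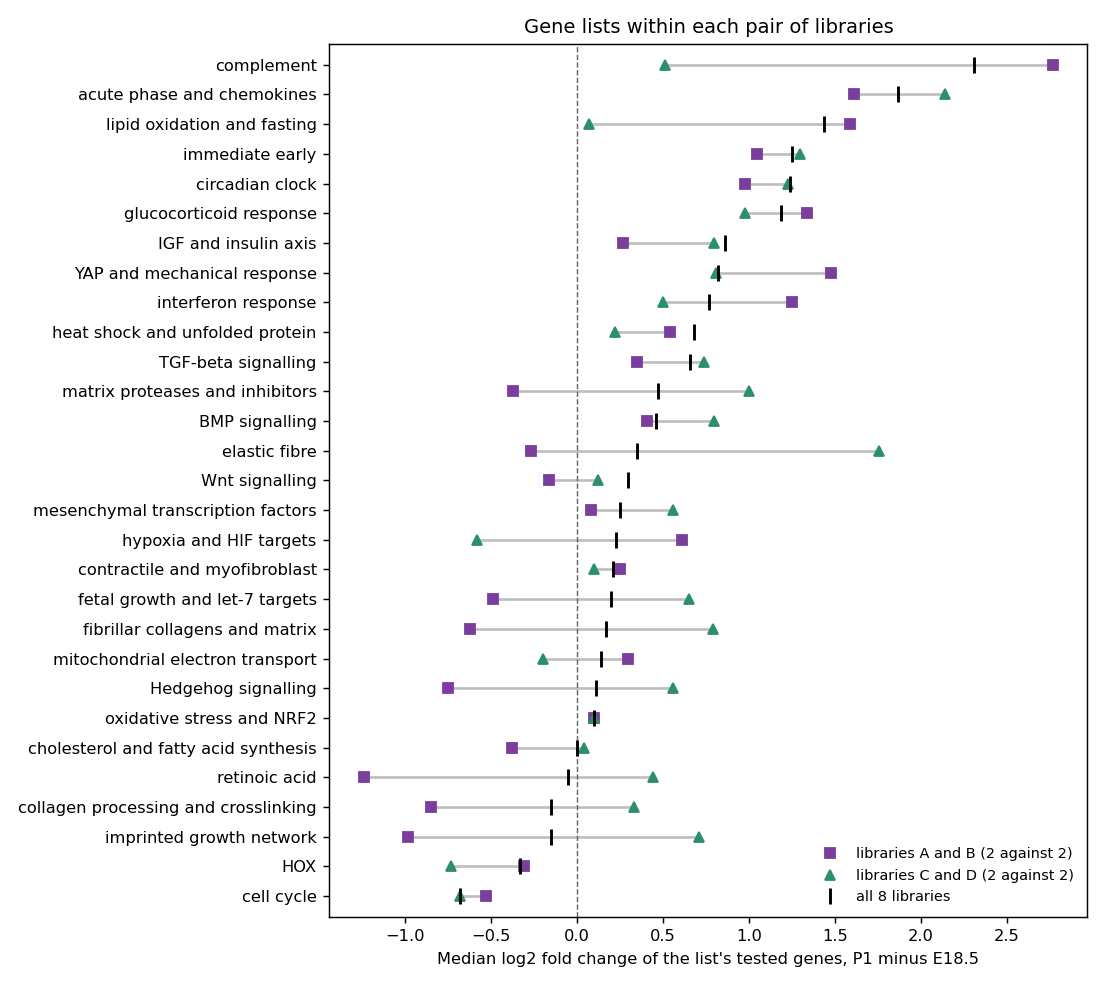
Median log2 fold change, P1 minus E18.5, of the tested genes of each process list, within libraries A and B (squares), within libraries C and D (triangles) and over all 8 libraries (bars). The acute phase, immediate early, circadian clock and glucocorticoid lists lie above 0 in both pairs, cell cycle and HOX below 0, and the imprinted, matrix and elastic fibre lists change sign.

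Markers of other cell types moved between the ages as well, and their part in the results above was not tested. All 7 tested endothelial markers (of 12) had a higher mean at P1 (median 2.73), led by Cldn5, a tight junction gene, at 23.95, 1.11, 0.2 and 0.7 CPM and then 743.4, 1021, 43.82 and 55.26 CPM (DESeq2 adjusted p = 0.00208). Cdh5, the cadherin of vessel junctions, was at 0.666 to 13.9 CPM at E18.5 and at 163, 448, 10.98 and 31.5 CPM in P1 A to D (here per unscaled library total). On that scale Pecam1 was at most 3.57 CPM, and Tek and Tie1 at most 0.834 CPM, values that the transcript tables may understate. Within the C and D pair the endothelial sum was 0.00726 and 0.00795% at E18.5 and 0.0112 and 0.0199% at P1, and 5 of 6 markers were higher at P1 (median 2.54). The largest member of that E18.5 sum, Esam, was lower at P1 (54.02 and 64.05 CPM, then 21.03 and 23.29 CPM, per unscaled library total). The sum thus rose less than markers such as Cldn5 (0.226 and 0.777 CPM, then 41.76 and 58.72 CPM) and Plvap (5.54 and 9.77 CPM, then 22.8 and 42.8 CPM). In the same pair Thbd was at 22.87 and 41.39 CPM and then 132.6 and 223.2 CPM, and Icam1 at 319.7 and 274 CPM and then 1380 and 1903 CPM.

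Adipocyte genes were higher chiefly in P1 B, in which the list took 3.29% of counts against 0.0732 to 0.514% elsewhere. Adipoq stood at 912.2 CPM there, at 0, 11.2 and 18.25 CPM in the other P1 libraries and at 0 to 74.44 CPM at E18.5. Only Fabp4, a fatty acid carrier also of vessels, and the scavenger receptor Cd36 had no overlap, both higher at P1 (4.91% of all genes). Fabp4 was at 23.45 to 373 CPM and then 525 to 8097 CPM (DESeq2 adjusted p = 0.0024). The complement list, with 8 of 8 tested genes higher in mean and a median of 2.31, shared that library: C3 stood at 1628 CPM and Cfd at 5781 CPM in P1 B, while C3 was at 6.63 to 13.25 CPM in the other P1 libraries. Masp1, a protease of the lectin pathway, was high in the others instead, at 0 to 8.65 CPM at E18.5 and 55.76, 11.89, 43.17 and 60.56 CPM in P1 A to D (DESeq2 adjusted p = 0.0529). Within the C and D pair the complement median was 0.51.

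Granulocyte genes went the other way. All 4 tested neutrophil markers (of 10) had a lower mean at P1 (median -5.56), and DESeq2 called Ngp and S100a8 lower (0.7% of all genes). Ltf, lactoferrin, was at 707.8, 27.56, 36.59 and 57.06 CPM in E18.5 A to D and 0, 6.22, 2.28 and 0 CPM in P1 A to D, and Ngp, another granule protein, at 71.75 to 497.2 and 0 to 19.07 CPM. The list took 0.0183 to 0.209% of counts at E18.5 and 0.000195 to 0.0126% at P1, with no overlap, although S100a9, Camp and Csf3r were at or under 0.535 CPM in every library. Its median was below 0 in both pairs (-5.94 and -5.38). Macrophage genes had a lower mean in 8 of 8, with the highest share in E18.5 A (0.289%), and without both A libraries their median was 1.10. Keratinocyte genes were highest in E18.5 C and D (1.76 and 1.75% of counts), followed by P1 A and B (0.485 and 0.62%). Lor, of the cornified layer, was at 1563 and 1926 CPM in E18.5 C and D and at 10.12 to 26.44 CPM in the other 6 libraries, whereas Sfn was at 1989 and 1649 CPM in P1 A and B (per unscaled library total). The list had 14 of 15 genes higher at P1 in the A and B pair and 0 of 16 in the C and D pair.

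The same step was then measured in the Prrx1-positive lineage, which shares no library with PNF. In a fit of the 12 libraries of both lineages, the 10 genes chosen as higher at P1 in PNF had a PPF step above 0 in 8, and the 10 lower genes a PPF step below 0 in 5. Over all 14401 genes of that fit the PPF step was above 0 in 55% and below 0 in 41.3%, with a median of 0.22 on the log2 scale, and the counts of the named genes are a description only. Sele was at 0 CPM in both PPF E18.5 libraries and at 73.65 and 67.9 CPM at P1. Cebpd had a PPF log2 step of 3.24, from 89.4 to 842.6 CPM, which edgeR called (adjusted p = 0.0185), and Itpkc one of 2.86 (adjusted p = 0.0624). Nsdhl had nearly equal steps, with -1.86 in PPF and a difference between the lineages of 0.05 (adjusted p = 1). Adamts1 had the opposite sign in PPF, -0.60, from 847 to 559 CPM, and a difference of 2.21 that missed the threshold (adjusted p = 0.084). Pycard, at 4.38 and 50.2 CPM in PPF, and Ctf1, at 1.16 and 9.11 CPM, were likewise higher at P1 in PPF and lower in PNF, with differences of -5.99 and -4.74 (adjusted p = 0.242 and 0.238). None of the 20 differences passed in edgeR. Icam1 and Nfkbia had means of 218 and 1023 CPM at E18.5 and 1898 and 3137 CPM at P1 in PPF, on the scale of all 24 libraries. On that scale markers of other cell types also differed between the PPF ages. Krt1 averaged 0 CPM at E18.5 and 2225 CPM at P1, Cpa3 0 and 331 CPM, and Cldn5 3.29 and 119.7 CPM. Genes of the pericyte and smooth muscle list split. Notch3 (215 and 30.3 CPM) and Cspg4 (491 and 293 CPM) were lower in mean at P1, and Acta2 (458.5 and 555.5 CPM) and Tagln (39.7 and 361.1 CPM) higher. The part of other cell types in the PPF steps was not tested.

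**Figure D5:**
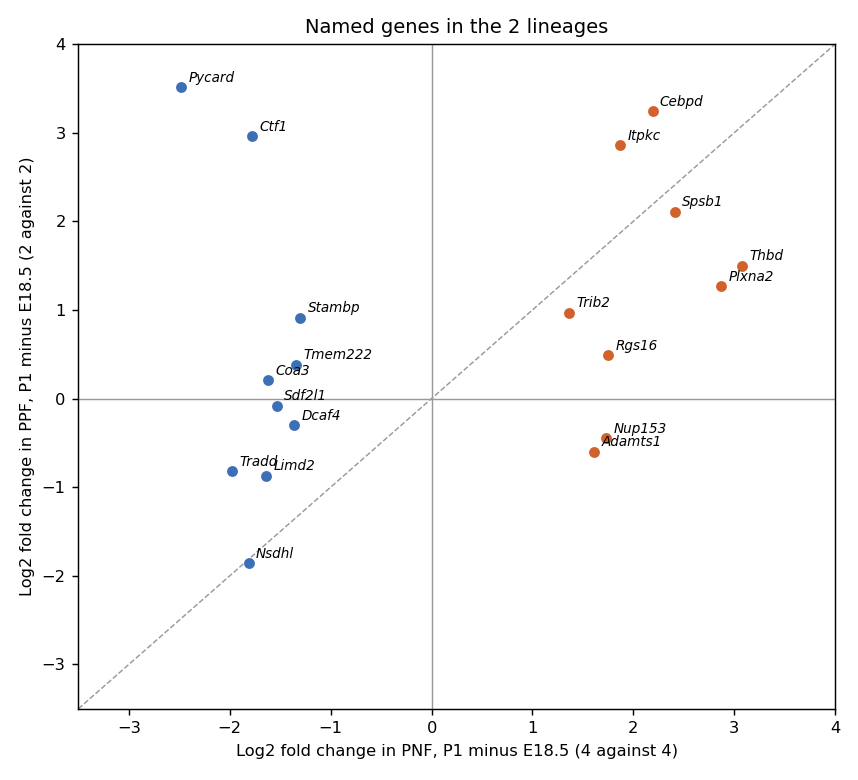
Log2 fold change from E18.5 to P1 in PNF (horizontal, 4 against 4 libraries) and in PPF (vertical, 2 against 2 libraries) for the named genes, from the fit of 12 libraries, with a dashed line of equal steps. Sele, at 0 CPM in PPF E18.5, is left out. Cebpd and Itpkc lie above the line, and Pycard and Ctf1 lie on opposite sides of 0 in the lineages.

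Where the steps themselves were called different, most genes were undetected in Prrx1-positive cells of E18.5. The interaction of lineage and age called 24 of 14401 genes (0.167%), 23 with the lower step in PNF. On the same libraries limma voom called 0 (2837 at an unadjusted p under 0.05) and DESeq2 673, and edgeR called 10 with all 24 libraries in the fit. Of the 24 genes, 19 had 0 counts in both PPF E18.5 libraries, which allows up to 0.228 CPM over the pair. Among the 24 were markers of other cell types. The mast cell gene Cpa3 averaged 0 CPM in PPF E18.5 and 368.4 CPM in PPF P1, and the Schwann cell gene Erbb3 0.378 and 36.8 CPM. The part of such cells in these calls was not tested. The median difference of all genes was -0.30 (-0.07 with RLE scaling). In PNF the ages overlapped for all 5 named genes of this test. Ly6a, the stem cell antigen Sca-1, was at 85.27 to 283.9 CPM in PNF E18.5 and 126.4 to 366.9 CPM in PNF P1, against 0 and then 751.4 and 974.3 CPM in PPF (adjusted p = 0.00225). Gas6, a ligand of TAM receptor kinases, was at 144.8 to 267 and 131.8 to 181.5 CPM in PNF, and at 3.26 and 2.23 CPM and then 58.16 and 135.1 CPM in PPF (log2 difference -5.47, adjusted p = 0.00985). Qpctl, an enzyme that cyclises glutamine at protein ends, was at 24.36 to 39.53 and 35.5 to 52.27 CPM in PNF, and Lurap1l and Ahnak2 had the same pattern, with adjusted p-values of 0.00294, 0.00294 and 0.0181. All 5 were also called without both PNF A libraries (adjusted p of at most 0.00756). The number called ran from 4 to 95 when 1 library was left out, with 95 without PNF E18.5 A, 47 without PPF E18.5 A, 7 without PNF P1 C or PPF P1 B, and 4 without any of PNF E18.5 C, PNF E18.5 D, PNF P1 D, PPF E18.5 B and PPF P1 A.

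Beside the earlier and later ages of PNF, the P1 means of Sele, Icam1 and Cebpd were above those of every other age. On the scale of all 24 libraries, Sele averaged 1.95 CPM at E16.5, 0.249 CPM before birth, 223 CPM at P1 and 0.304 CPM a month later. Icam1 averaged 129, 298, 2211 and 383 CPM at these ages, and both P30 libraries (133.6 and 631.9 CPM) lay below the lowest P1 library (1321 CPM). Cebpd averaged 142, 308, 1412 and 617 CPM. Thbd and Klf9 were different, since 1 of the 2 P30 libraries lay within the P1 range (301.7 CPM for Thbd, 126.9 to 342.5 CPM at P1) or above it (467.7 CPM for Klf9, against at most 395.6 CPM at P1). The other P30 library, in which only 6508 genes had a count, held 0 and 97.44 CPM of them. Order among ages was not tested, and each of E16.5 and P30 rests on 2 libraries. The 2 P30 libraries were unlike in globin, with Hbb-bt at 950.9 CPM in 1 and 628900 CPM in the other. The part of this in the P30 levels was not tested.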

How the data were processed

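Counts were deposited as tables of whole-number read counts per transcript, 1 table per library. The authors made them on mm10, per the submitters' processing notes, with featureCounts, per the names of the deposited tables. The aligner, the strand setting and the treatment of reads shared by transcripts are not given in the sources used here. Of 95883 transcripts, 82946 were found in GENCODE vM21 and summed to 34030 genes. The other 12937 held 4.96% of the counts of the 8 libraries (3.33 to 5.61%) and were left out. Sparc, usually abundant in fibroblasts, had at most 7.92 CPM. Intervals and floors (3 counts) cover counting error only, as no molecular identifiers are described for the amplified cDNA.

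Gene counts were filtered (filterByExpr), scaled by TMM (factors 0.73 to 1.145) and fitted with edgeR 4.0.16 in R 4.3.3 (quasi-likelihood, 4 against 4 libraries, 6 residual degrees of freedom). Tests are two-sided with Benjamini-Hochberg adjustment over all tested genes and a threshold of 0.05. A second fit of 12 libraries tested the interaction of lineage and age. DESeq2 1.42.0 (adjusted p missing for 840 genes), limma voom 3.58.1 with a quality weight per library, and other scalings, filters and library sets were alternatives. The scripts were tested on simulated counts. As no gene was called, the text names per direction the 10 genes of lowest p whose libraries do not overlap and whose higher mean reaches 10 CPM. It also names from each list the 4 of lowest p, 5 genes of the interaction and Prrx1, leaving out predicted, pseudogene, antisense, microRNA and sex-linked genes. Fuller accounts of list members (Il6, Ccl7, Has1, Fos, Fkbp5, Tsc22d3, Mki67, Adipoq, the genes called without the A libraries and others) were chosen after their values were seen. The members and lists were chosen with earlier results of these data known. 1 list gene is not reported here. Single-cell samples were not used here.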

Additional observations from a re-analysis of the deposited data

Results flagged for a closer look

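Among 74 groups of 4 libraries checked for a library far from the other 3, 15 were marked, where chance marks about 1 in 20 groups. Most of the marks fell on an A library. E18.5 A was highest for Itpkc (94.31 CPM), Nsdhl (133.8 CPM), Stambp (147.9 CPM) and Prrx1 (116 CPM), and for the share of counts in the erythroid (43.3%) and macrophage and dendritic (0.289%) lists. It was lowest for the papillary fibroblast (0.0886%) and the reticular and fascia fibroblast (0.0791%) lists. P1 A was highest for the erythroid (10.1%) and melanocyte (0.0144%) lists. E18.5 B was highest for Sele (0.9503 CPM) and the tendon and cartilage list (1.01%) and lowest for Sdf2l1 (65.41 CPM). P1 B was highest for Sele (636.8 CPM) and the adipocyte list (3.29%).

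The step from E18.5 to P1 was called different between PNF and PPF by the interaction test in edgeR over 12 libraries for Ly6a (adjusted p = 0.00225), Qpctl (0.00294), Lurap1l (0.00294), Gas6 (0.00985) and Ahnak2 (0.0181). Limma voom called 0 genes in the same interaction, and the cause of this difference between tools was not tested. In each, the PNF levels of the 2 ages overlapped and the PPF E18.5 libraries were at or near 0.

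Sex-linked RNA differed among libraries. E18.5 A had Xist at 401 CPM and Ddx3y at 0.892 CPM, E18.5 B and P1 A had no Xist and Ddx3y at 182 and 162 CPM, and the other 5 libraries held both (Xist 41.2 to 128 CPM, Ddx3y 152 to 290 CPM).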

How the results depend on the processing

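The count of 0 genes called by edgeR between P1 and E18.5 was also 0 with RLE and upper quartile scaling, erythroid genes removed, a fold threshold of 1.5, no filter, a filter at 1 CPM, all 24 libraries in the fit, a term for A and B against C and D, C and D summed, A and B only and, chosen after seeing the data, a robust spread. It was 1391 (747 higher, 644 lower) with C and D only, 276 (201 higher, 75 lower) with DESeq2 and 1341 (924 higher, 417 lower) with limma voom. Leaving out 1 library gave 0 to 2 calls (0 to 2 higher, 0 lower), the 2 being Fgl2 and Tnfaip6 without P1 A (adjusted p = 0.028). Chosen after seeing the data, leaving out both A libraries gave 7 (6 higher, 1 lower: Ndufa4l2) with edgeR, 908 (605 and 303) with DESeq2 and 1190 (814 and 376) with voom, and summing C and D gave 85 (74 and 11) with DESeq2 and 0 with voom. The replicate letters did not pair the samples (correlations of same-letter deviations of 0.108, -0.229, -0.062 and -0.104), and the replicate block gave 0 calls with edgeR and 311 (216 and 95) with DESeq2. The 24 interaction calls (1 higher and 23 lower in PNF) became 15 (1 and 14) with RLE, 673 (178 and 495) with DESeq2, 0 (0 and 0) with voom, 10 (0 and 10) with all 24 libraries and 311 (52 and 259) without both PNF A libraries. They ran from 4 to 95 (0 to 4 higher, 4 to 91 lower) with 1 library left out, where a lone PPF library is assumed to vary like the other groups. The causes of these shifts were not tested, and no filter gave 25 (1 and 24). Of 609 alternative values of the 21 named genes, 606 had the same direction, which the choice of genes without overlap largely fixes. The exception was Prrx1, at 0.14 with voom, with C and D only and with voom without both A libraries. Libraries of 5608500 counts and a floor of 3 counts limit statements on genes near 0.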
